A study of Mus musculus with 9 samples.

Results

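The genes described here are those of monocytes and macrophages, followed in RNA of the mouse left ventricle. They are the 38 genes of a list of white blood cell receptors, adaptors, complement subunits, lysosomal enzymes and membrane proteins. A gene was counted as measured where a probe set carried its symbol, with the older symbol Emr1 accepted for Adgre1. Probe sets with several symbols, or to which 2 deposited tables give different genes, were left out. By these rules 37 of the 38 were found among 21809 genes tested, and Spi1 was present only under its older symbol Sfpi1, so its values are given apart. The study asked how vitamin A affects gene expression in the ventricle and ran 9 Affymetrix MoGene arrays on male mice, with 3 arrays in each of 3 groups. The first group was labelled LRAT -/- (written Lrat-/- below) and ate a vitamin A deficient diet, the second was Lrat-/- on a vitamin A sufficient diet, and the third was wild-type on the sufficient diet. Both diets were fed for 50 days and had the same composition except for retinol palmitate, which was added to the sufficient diet at 250000 U/kg. Lrat encodes lecithin retinol acyltransferase, the enzyme that esterifies retinol for storage, and all mice of both Lrat-/- groups carry the same label for it. Strain and age are not given in the sources used here, and a wild-type group on the deficient diet is not analysed here. Each sample was left ventricle tissue, cut from the right along the septum, and its RNA was hybridised to 1 array. Nothing in the labels ties an array to a litter or says how many mice gave each RNA, so p-values measure the spread between these arrays, which may be technical.

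Macrophages engulf particles and dying cells, digest them in lysosomes, make the C1q subunits of complement and read their surroundings through Fc receptors, lectins and scavenger receptors. The heart holds resident macrophages that lie between the muscle cells, and monocytes from the blood can enter it and become macrophages. Their survival depends on the receptor Csf1r, and the transcription factor PU.1, encoded by Spi1, directs their development. In RNA of a whole ventricle, fewer cells of a type and less RNA per cell cannot be told apart.

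The targeted gene was examined first. Lrat had log2 signals of 6.84, 6.78 and 6.96 on the arrays labelled Lrat-/- deficient, 7.29, 7.34 and 7.38 on those labelled Lrat-/- sufficient, and 5.81, 5.78 and 5.73 on the wild-type arrays. Its signal was thus higher on both sets of arrays labelled Lrat-/-, by 1.57 ± 0.07 (SE, limma adjusted p = 1.47e-05) in the sufficient group. The labels do not say which exons were removed, and a probe outside them checks nothing. No loss of Lrat was seen in this signal, and whether the genotype labels are right was not tested. Every genotype direction below is that of the arrays as labelled. On a principal component plot of all genes, wild-type arrays 1 and 2 stood at -27.0 and -17.0 on the first component (27.8% of the variance), apart from wild-type array 3 at 3.80, and wild-type array 3 stood at 22.1 on the second (19.3%). Sufficient Lrat-/- arrays 2 and 3 stood at -12.9 and -17.4 on the second component, apart from array 1 of that group at 2.61. The array medians over all genes lay between 6.85 and 6.88.

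The signal of 5 members that define macrophages was read, which does not test the label of the list. C1qa, Cd68, Csf1r, Emr1 and Lyz2 had mean log2 signals of 10.22, 9.97, 9.72, 9.18 and 12.91 over the 9 arrays, and each was above the array median of all genes on every array. Probe sets differ in brightness, so these levels are not ranked against each other. Of the 37 members 35 had a mean of at least 6 and 32 of at least 7, and no member was left out for a low signal. Those under 7 were Clec4d (5.62), Plac8 (5.37), Gpnmb (6.53), Ccr2 (6.56) and Clec7a (6.87).

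No member passed the threshold of an adjusted p under 0.05 in any of the 3 comparisons (limma, Benjamini-Hochberg over 21809 genes). Between Lrat-/- and wild type on the sufficient diet 0 of 37 members were called, against 0.133% of all genes. Between the deficient and the sufficient diet within Lrat-/- it was 0 of 37, with 0% of all genes called. Between Lrat-/- on the deficient diet and wild type on the sufficient diet it was 0 of 37, against 0.133% of all genes. The largest differences were a deficit of Clec7a, the beta-glucan receptor dectin-1, on the deficient Lrat-/- arrays relative to wild type (-0.997 ± 0.21 on the log2 scale, where 1 stands for 2-fold), and an excess of Ms4a7, a membrane protein of macrophages, on the same arrays relative to the sufficient Lrat-/- arrays (0.88 ± 0.25). The adjusted p was 0.170 for the first and 0.969 for the second. The counts that follow describe the direction of differences that did not pass.

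On the sufficient diet 33 of the 37 members were lower and 4 higher on the arrays labelled Lrat-/- than on wild-type arrays, while 50.8% of all genes were lower. The median difference of the members was -0.18 (log2), beside -0.00 for all genes, and single members ranged from -0.79 for Cd52 to 0.27 for Cd14. An unadjusted p under 0.05 was reached by 4 members, against 6.8% of all genes. All 4 were lower, as were 3.79% of all genes by the same threshold. They were Itgam (-0.46 ± 0.11, adjusted p = 0.293), Ly86 (-0.72 ± 0.22, adjusted p = 0.515), Clec7a (-0.64 ± 0.21, adjusted p = 0.577) and Cd52 (-0.79 ± 0.26, adjusted p = 0.592). The signals of the 2 groups did not overlap for 2 members, Ly86 and Itgam, both lower, and 4.28% of all genes were lower without overlap.

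On the deficient diet 32 of the 37 members were higher and 5 lower than on the sufficient diet within Lrat-/-, while 48.4% of all genes were higher. The members' median difference was 0.15, beside -0.00 for all genes. These 2 comparisons share the 3 sufficient Lrat-/- arrays, which are subtracted in one and subtracted from in the other, so their directions are not separate observations. An unadjusted p under 0.05 was reached by 5 members, against 4.29% of all genes. All 5 were higher, against 2.18% of all genes. They were Ms4a7 (0.88 ± 0.25), Lgals3 (0.47 ± 0.14), Fcgr3 (0.61 ± 0.23), Cd68 (0.36 ± 0.14) and Tyrobp (0.37 ± 0.16), each with an adjusted p of 0.969. The lowest adjusted p of any gene in this comparison was 0.463. Without overlap between the groups 5 members were higher, against 4.36% of all genes, and 2 members, Gpnmb and Clec7a, were lower, against 5.14%. Same-numbered arrays of these 2 groups deviated together, though the labels do not pair them and the fit above has no block. With the replicate number as a block over all 9 arrays, 4 members had an unadjusted p under 0.05, against 4.71% of all genes. With only these 2 groups in the model and no block it was 6, against 6.21%. With the block and only these 2 groups it was 11, against 9.07%. After adjustment 0 members passed in each of these settings.

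Between Lrat-/- on the deficient diet and wild type on the sufficient diet 19 members were higher and 18 lower, with 48.6% of all genes higher, and the median difference was 0.00. An unadjusted p under 0.05 was reached by 5 members, against 9.02% of all genes. The 2 higher ones, Ms4a7 (0.78 ± 0.25, adjusted p = 0.420) and Cd68 (0.34 ± 0.14, adjusted p = 0.536), stand against 3.56% of all genes. The 3 lower ones, Clec7a, Itgam (-0.40 ± 0.11, adjusted p = 0.311) and Ly86 (-0.56 ± 0.22, adjusted p = 0.503), stand against 5.47%. These SE and p-values rest on a spread shared with the sufficient Lrat-/- arrays. With only the 2 compared groups in the model, 10 members had an unadjusted p under 0.05, against 7.95% of all genes. After adjustment 0 members passed there. Without overlap 5 members were higher (Cd68, Lgals3, Ms4a7, Ms4a6c and Ms4a6d), against 4.9% of all genes, and 5 were lower (C1qb, Lyz2, Ly86, Clec7a and Itgam), against 6.56%.

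**Figure D1:**
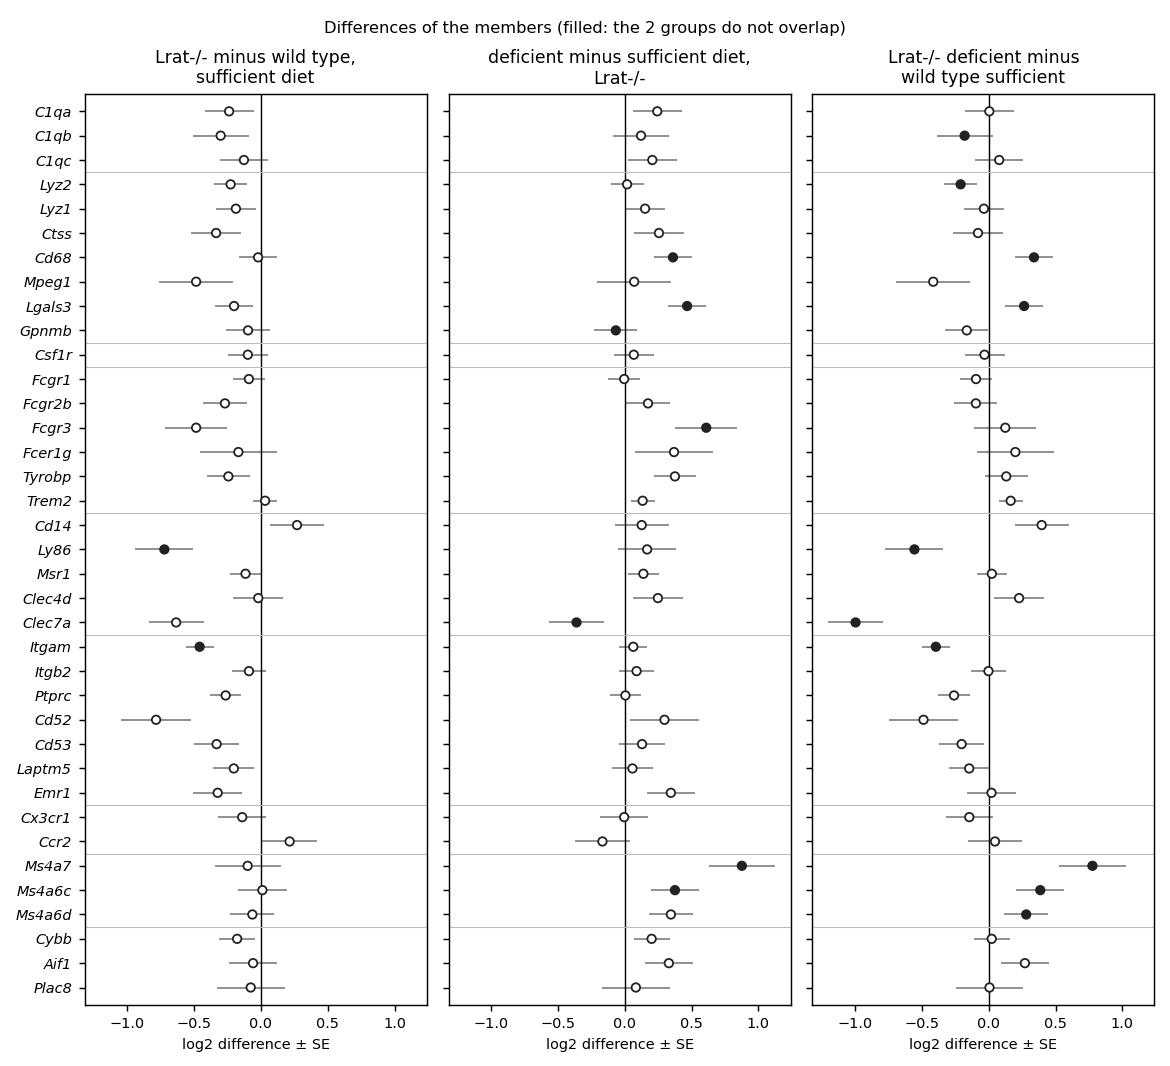
Log2 difference of each member in 3 comparisons, each point with its standard error from the fit over 9 arrays, genes in blocks by role and named at the left. Filled points mark members whose 2 groups did not overlap. In the left panel 33 of 37 points lie below 0, in the middle panel 32 of 37 lie above 0, and in the right panel 19 lie above and 18 below.

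The sufficient Lrat-/- arrays spread more widely for the members than the arrays of the other groups. After each gene's mean over the 9 arrays was set to 0, the mean over the 37 members was 0.09, -0.01 and 0.08 on the deficient Lrat-/- arrays. It was 0.19, -0.22 and -0.36 on the sufficient Lrat-/- arrays, and 0.01, 0.06 and 0.15 on the wild-type arrays. Sufficient Lrat-/- array 1 was thus the highest of all 9, and arrays 2 and 3 of the same group were the lowest. The SD of these array means was 0.0543 among deficient Lrat-/- arrays, 0.285 among sufficient Lrat-/- arrays and 0.0681 among wild-type arrays. The median SD of a member within its group was 0.126, 0.284 and 0.200 in these 3 groups, while that of all genes was 0.0895, 0.106 and 0.113. Sufficient Lrat-/- array 3 held the lowest of the 9 signals for 19 of the 37 members, against 12.7% of all genes, and array 2 for 9 members, against 10.2% of all genes. Sufficient Lrat-/- array 1 was below a member's mean over the 9 arrays for 1 member and held the highest signal for 8, against 6.19% of all genes. Wild-type array 3 held the highest signal for 10 members, against 11.9% of all genes.

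**Figure D2:**
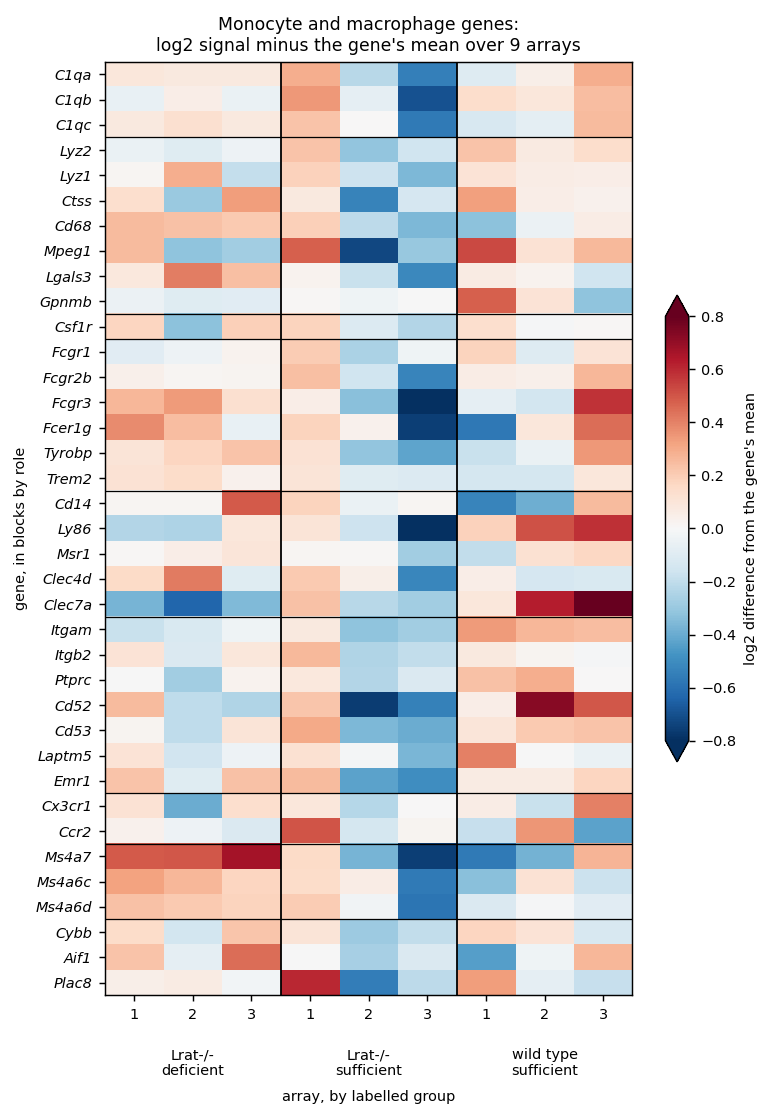
Log2 signal of each of the 37 members (down the page, in blocks by role) on each of the 9 arrays (across, by labelled group), minus the gene's mean over the 9 arrays. Red is above and blue below that mean, with the scale ending at 0.8 either way. The column of sufficient Lrat-/- array 1 is red for nearly every member (mean 0.19), the columns of arrays 2 and 3 of that group are mostly blue (means -0.22 and -0.36), and the block of the 3 Ms4a genes is red on the 3 deficient arrays.

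The members' shift depended on single arrays of the sufficient Lrat-/- group. Without its array 3 the median difference from wild type was -0.06 with 11 members higher, and without its array 1 it was -0.34 with 2 members higher. Without its array 2, or without wild-type array 3, 8 members were higher. For the diet the median was 0.03 without sufficient array 3 and 0.37 without sufficient array 1, and between 25 and 35 members were higher whichever array was left out. Members with an unadjusted p under 0.05 for the genotype numbered 2 without sufficient array 3, against 5.31% of all genes. For the diet they numbered 2, against 3.41%. Without sufficient array 2 they numbered 3 for the genotype, against 5.05%, and 2 for the diet, against 3.98%. Without sufficient array 1 they numbered 19 for the genotype, against 10.2% of all genes, and 16 for the diet, against 6.09%. In that setting Itgam alone of the members passed for the genotype (-0.59, adjusted p = 0.0465), and 0 passed for the diet. Of all 21809 genes 22 passed there for the genotype and 0 for the diet.

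The promoters of Itgam, Clec7a and Ms4a7, the members with the lowest p in the 3 comparisons, are shown because PU.1, the lineage factor of these cells, is known to bind sites with the core GAGGAA. The windows run 250 bases before to 50 bases after the annotated start of each gene (RefSeq, assembly GRCm38.p6), are written 5′ to 3′ on the gene's strand, and have GAGGAA and its reverse complement TTCCTC in capitals. Itgam lies on the plus strand at chr7:128062390-128062689, Clec7a on the minus strand at chr6:129472730-129473029 (the first of 2 windows), and the first of 2 windows of Ms4a7 on the minus strand at chr19:11336097-11336396.
Itgam: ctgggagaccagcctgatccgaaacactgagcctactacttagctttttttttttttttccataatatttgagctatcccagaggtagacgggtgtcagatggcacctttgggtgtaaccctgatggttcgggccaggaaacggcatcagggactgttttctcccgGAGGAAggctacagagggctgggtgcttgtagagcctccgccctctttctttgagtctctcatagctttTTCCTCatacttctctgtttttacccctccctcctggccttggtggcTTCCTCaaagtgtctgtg
Clec7a: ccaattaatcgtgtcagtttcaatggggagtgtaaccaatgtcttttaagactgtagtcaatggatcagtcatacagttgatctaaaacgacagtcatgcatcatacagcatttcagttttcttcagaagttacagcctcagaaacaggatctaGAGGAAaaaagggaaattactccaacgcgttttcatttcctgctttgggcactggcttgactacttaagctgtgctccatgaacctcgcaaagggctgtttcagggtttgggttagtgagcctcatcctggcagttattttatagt
Ms4a7: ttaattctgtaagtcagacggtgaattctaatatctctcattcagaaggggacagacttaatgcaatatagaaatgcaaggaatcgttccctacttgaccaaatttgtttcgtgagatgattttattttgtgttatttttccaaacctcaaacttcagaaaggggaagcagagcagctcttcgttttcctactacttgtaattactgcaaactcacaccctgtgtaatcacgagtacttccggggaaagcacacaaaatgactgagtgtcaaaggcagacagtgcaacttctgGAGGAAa
The Itgam window held 3 matches on either strand, and the last of them lies after the start. The Clec7a window held 1 and the first Ms4a7 window 1, which also lies after the start. The second Ms4a7 window, at chr19:11334646-11334945, held 0, and the second of 2 overlapping Clec7a windows held 1. A window was found by symbol for 28 of the 38 members, 33 windows in all. Of these 19 (57.6%) held GAGGAA on either strand, against 28.3% of 32851 windows of all genes. A match is a string of letters and not a shown binding site.

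The complement subunits C1qa, C1qb and C1qc form C1q, which binds antibody complexes and cell debris and starts the classical pathway. C1qa had log2 signals of 10.31, 10.29 and 10.29 on deficient Lrat-/- arrays, 10.50, 9.99 and 9.67 on sufficient Lrat-/- arrays and 10.11, 10.26 and 10.51 on wild-type arrays. C1qb had 11.46, 11.57 and 11.46 on deficient Lrat-/- arrays, 11.86, 11.44 and 10.81 on sufficient Lrat-/- arrays and 11.66, 11.61 and 11.76 on wild-type arrays. C1qc had 11.30, 11.35 and 11.30 on deficient Lrat-/- arrays, 11.45, 11.23 and 10.66 on sufficient Lrat-/- arrays and 11.10, 11.15 and 11.48 on wild-type arrays. All 3 were lowest on sufficient Lrat-/- array 3, and the 3 deficient arrays lay close together, with SDs of 0.0069, 0.063 and 0.028 against 0.42, 0.53 and 0.41 on the sufficient diet. The difference on the sufficient diet between Lrat-/- and wild type was -0.24 ± 0.18 for C1qa, -0.30 ± 0.21 for C1qb and -0.13 ± 0.18 for C1qc, and the lowest adjusted p of the 3 genes was 0.816. C1qb on deficient Lrat-/- arrays lay below all wild-type arrays by a small margin (-0.18 ± 0.21, adjusted p = 0.830).

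Lysozyme, cathepsin S, the lysosomal glycoprotein Cd68, the pore-forming Mpeg1, the galectin Lgals3 and the glycoprotein Gpnmb belong to killing and digestion in the phagosome and lysosome. All 7 members of this role were lower on sufficient Lrat-/- than on wild-type arrays, and 6 of 7 were higher on the deficient than on the sufficient diet. Lyz2, the lysozyme of macrophages, had 12.85, 12.81 and 12.86 on deficient Lrat-/- arrays, 13.14, 12.59 and 12.75 on sufficient Lrat-/- arrays and 13.13, 12.98 and 13.05 on wild-type arrays. All deficient signals were below all wild-type signals (-0.21 ± 0.12, adjusted p = 0.652), while sufficient Lrat-/- array 1 was the highest of the 9. Cd68 had 10.23, 10.21 and 10.18 on deficient Lrat-/- arrays, 10.16, 9.76 and 9.61 on sufficient Lrat-/- arrays and 9.64, 9.93 and 10.03 on wild-type arrays. The 3 deficient arrays were above the other 6, by 0.36 ± 0.14 on average over sufficient Lrat-/- (adjusted p = 0.969) and by 0.34 ± 0.14 over wild type (adjusted p = 0.536). A brighter probe set that carries the symbol Cd68 in one deposited table is named Eif4a1, a translation factor, in another and was not used. With that probe set the Cd68 differences turn to -0.15 for the diet and -0.12 between deficient Lrat-/- and wild type.

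Lgals3, which binds glycans and is abundant in activated macrophages, had 8.89, 9.22 and 9.05 on deficient Lrat-/- arrays, 8.84, 8.63 and 8.29 on sufficient Lrat-/- arrays and 8.88, 8.84 and 8.65 on wild-type arrays. Its lowest deficient signal was just above the highest signal of each other group, and the difference was 0.47 ± 0.14 for the diet (adjusted p = 0.969) and 0.26 ± 0.14 between deficient Lrat-/- and wild type (adjusted p = 0.618). Gpnmb, a glycoprotein of lipid-laden macrophages, had 6.48, 6.43 and 6.43 on deficient Lrat-/- arrays, 6.54, 6.49 and 6.53 on sufficient Lrat-/- arrays and 7.01, 6.63 and 6.20 on wild-type arrays. Its deficient and sufficient Lrat-/- signals did not overlap but differed by only -0.07 ± 0.16, less than the SE. That SE is from the fit over all 3 groups. The wild-type arrays spread around both (SD 0.402, against 0.0282 on deficient and 0.0247 on sufficient Lrat-/- arrays). Lyz1, Ctss and Mpeg1 differed by -0.19 ± 0.15, -0.34 ± 0.19 and -0.49 ± 0.28 between sufficient Lrat-/- and wild type. For the diet they differed by 0.15 ± 0.15, 0.26 ± 0.19 and 0.07 ± 0.28. Their groups overlapped in all 3 comparisons. Lyz1 and Lyz2 are near copies of each other, so their probes may share RNA.

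Csf1r, the receptor for the growth factors Csf1 and Il34 on which macrophages depend, had 9.89, 9.39 and 9.91 on deficient Lrat-/- arrays, 9.90, 9.61 and 9.48 on sufficient Lrat-/- arrays and 9.85, 9.70 and 9.73 on wild-type arrays. The groups overlapped fully, with differences of -0.10 ± 0.15 for the genotype on the sufficient diet and 0.07 ± 0.15 for the diet. Sfpi1, the older symbol of Spi1, had 9.07, 9.38 and 9.40 on deficient Lrat-/- arrays, 9.12, 8.81 and 8.54 on sufficient Lrat-/- arrays and 8.98, 8.99 and 9.39 on wild-type arrays. It differed by -0.30 ± 0.17 for the genotype (adjusted p = 0.761) and by 0.46 ± 0.17 for the diet (adjusted p = 0.969), and sufficient Lrat-/- array 3 held its lowest signal.

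Fc receptors bind antibody, and Fcer1g and Tyrobp are the adaptors that carry activating Fc receptor and Trem2 signals into the cell through ITAM motifs. Of the 6 members of this role 5 were lower on sufficient Lrat-/- than on wild-type arrays and 5 were higher on the deficient than on the sufficient diet. Fcgr3, an activating receptor, had 9.52, 9.60 and 9.39 on deficient Lrat-/- arrays, 9.31, 8.93 and 8.44 on sufficient Lrat-/- arrays and 9.19, 9.11 and 9.84 on wild-type arrays. All deficient signals were above all sufficient Lrat-/- signals (0.61 ± 0.23, adjusted p = 0.969), while wild-type array 3 was above all of them. Tyrobp had 10.56, 10.63 and 10.69 on deficient Lrat-/- arrays, 10.57, 10.14 and 10.04 on sufficient Lrat-/- arrays and 10.28, 10.40 and 10.80 on wild-type arrays. Here sufficient array 1 just exceeded the lowest deficient array, and the diet difference was 0.37 ± 0.16 (adjusted p = 0.969). Trem2, a receptor for lipids and cell debris, had 8.13, 8.16 and 8.05 on deficient Lrat-/- arrays, 8.12, 7.92 and 7.91 on sufficient Lrat-/- arrays and 7.87, 7.87 and 8.11 on wild-type arrays. Its differences were small, at 0.13 ± 0.09 for the diet and 0.16 ± 0.09 between deficient Lrat-/- and wild type, with the smallest SE of the members.

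The other 3 genes of this role overlapped between the groups in every comparison. Fcgr1, the high-affinity receptor, differed by -0.09 ± 0.12 for the genotype and -0.01 ± 0.12 for the diet. Fcgr2b, the inhibitory receptor, differed by -0.27 ± 0.16 for the genotype and 0.17 ± 0.16 for the diet. Fcer1g, whose product also serves the IgE receptor of mast cells, differed by -0.17 ± 0.29 and 0.37 ± 0.29. It had the largest SD of all members among the wild-type arrays (0.516).

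Pattern recognition and scavenging were represented by Cd14 and Ly86, which serve toll-like receptors, by the scavenger receptor Msr1 and by the lectins Clec4d and Clec7a. Ly86, also called MD-1, pairs with the receptor Cd180 and had 9.85, 9.84 and 10.18 on deficient Lrat-/- arrays, 10.19, 9.93 and 9.26 on sufficient Lrat-/- arrays and 10.28, 10.60 and 10.68 on wild-type arrays. All 6 arrays labelled Lrat-/- lay below all 3 wild-type arrays, by -0.72 ± 0.22 on the sufficient diet (adjusted p = 0.515) and -0.56 ± 0.22 on the deficient diet (adjusted p = 0.503). Clec7a had 6.50, 6.23 and 6.51 on deficient Lrat-/- arrays, 7.10, 6.64 and 6.58 on sufficient Lrat-/- arrays and 6.95, 7.50 and 7.78 on wild-type arrays. The deficient arrays were below the sufficient Lrat-/- arrays (-0.36 ± 0.21, adjusted p = 0.969) and below the wild-type arrays (-0.997 ± 0.21, or 0.501-fold, adjusted p = 0.170), and sufficient Lrat-/- array 1 overlapped wild-type array 1. Leaving out 1 array at a time kept the difference between deficient Lrat-/- and wild type between -1.23 and -0.81. It passed with limma's array weights (-1.01, adjusted p = 0.0491), where 69 of 21809 genes passed.

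Cd14, the co-receptor for bacterial lipopolysaccharide, was the member with the highest difference between sufficient Lrat-/- and wild type (0.27 ± 0.20, adjusted p = 0.826) and was at 0.40 ± 0.20 between deficient Lrat-/- and wild type. Msr1 differed by -0.12 ± 0.11 for the genotype and 0.14 ± 0.11 for the diet. Clec4d, a dim gene on these arrays, differed by -0.02 ± 0.19 and 0.25 ± 0.19. The groups of these 3 genes overlapped in each comparison.

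Integrins and leukocyte membrane proteins were lower on sufficient Lrat-/- than on wild-type arrays in 7 of 7 cases and higher on the deficient than on the sufficient diet in 7 of 7. Itgam, the alpha chain of complement receptor 3 and the antigen CD11b, had 7.02, 7.08 and 7.17 on deficient Lrat-/- arrays, 7.28, 6.88 and 6.92 on sufficient Lrat-/- arrays and 7.54, 7.46 and 7.45 on wild-type arrays. The wild-type arrays lay close together (SD 0.049) and above all 6 arrays labelled Lrat-/-, with differences of -0.46 ± 0.11 on the sufficient diet (adjusted p = 0.293) and -0.40 ± 0.11 on the deficient diet (adjusted p = 0.311). Its partner Itgb2, the beta chain, differed by -0.09 ± 0.13 and -0.00 ± 0.13 in the same comparisons, and its groups overlapped.

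Cd52, a small surface glycoprotein of leukocytes, had 9.22, 8.77 and 8.73 on deficient Lrat-/- arrays, 9.19, 8.21 and 8.43 on sufficient Lrat-/- arrays and 9.02, 9.70 and 9.46 on wild-type arrays. It had the lowest difference of any member between sufficient Lrat-/- and wild type (-0.79 ± 0.26, adjusted p = 0.592), yet sufficient array 1 lay within the wild-type range. Ptprc, the pan-leukocyte phosphatase CD45, had 7.12, 6.85 and 7.15 on deficient Lrat-/- arrays, 7.21, 6.89 and 7.01 on sufficient Lrat-/- arrays and 7.36, 7.41 and 7.13 on wild-type arrays. It was at -0.26 ± 0.12 (adjusted p = 0.734) for the genotype and 0.00 ± 0.12 for the diet, with overlap through wild-type array 3. Emr1, an adhesion-type receptor used to mark mature macrophages, had 9.41, 9.09 and 9.42 on deficient Lrat-/- arrays, 9.44, 8.76 and 8.69 on sufficient Lrat-/- arrays and 9.25, 9.25 and 9.35 on wild-type arrays. Its deficient arrays spanned the range of the wild-type arrays (0.02 ± 0.18), and sufficient arrays 2 and 3 lay below both. Cd53, a tetraspanin, and Laptm5, a lysosomal membrane protein of blood cells, differed by -0.33 ± 0.17 and -0.20 ± 0.15 for the genotype and by 0.13 ± 0.17 and 0.06 ± 0.15 for the diet.

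**Figure D3:**
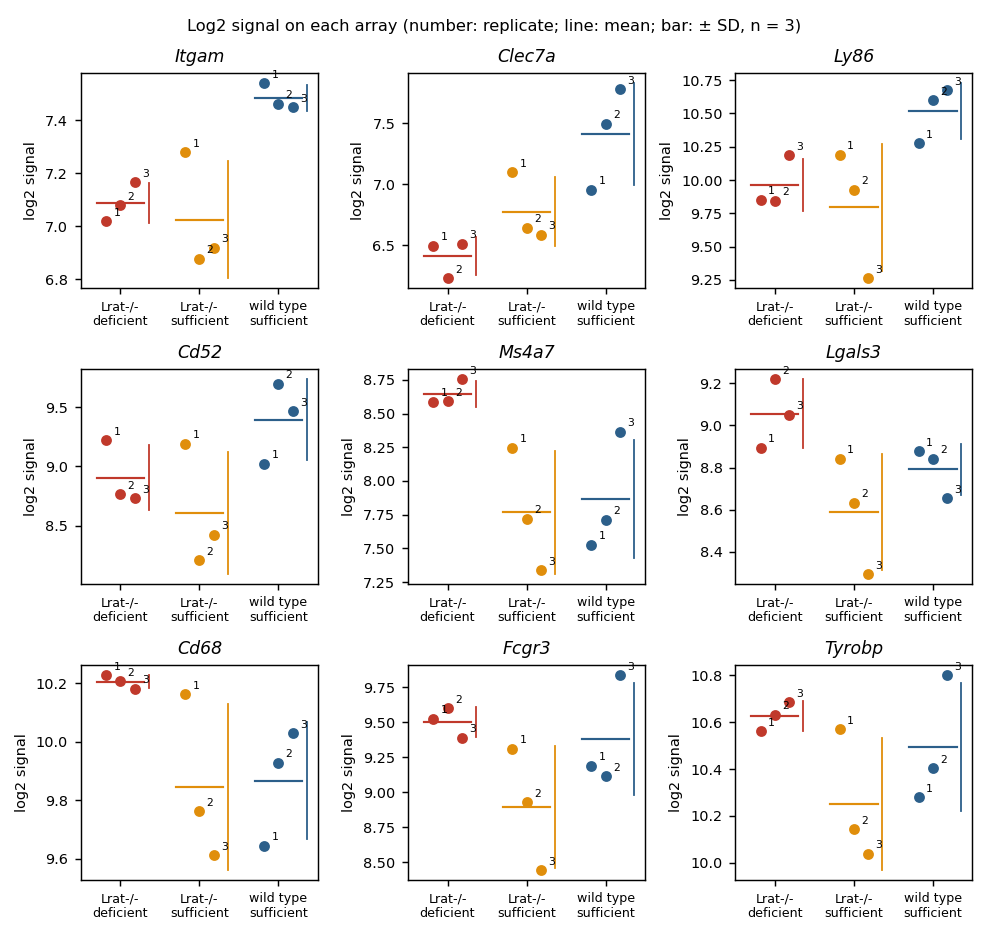
Log2 signal on each array for 9 members that had an unadjusted p under 0.05 in at least 1 comparison. Points are arrays with their replicate number, horizontal lines group means and vertical bars ± SD (n = 3), and each panel has its own vertical range. For Itgam and Ly86 the 6 arrays labelled Lrat-/- lie below the 3 wild-type arrays, and for Ms4a7, Lgals3 and Cd68 the 3 deficient arrays lie above the other 6.

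The chemokine receptors Cx3cr1, found on patrolling monocytes and resident macrophages, and Ccr2, which inflammatory monocytes use to leave the marrow and enter tissue, had small differences relative to their SE. Cx3cr1 had 7.53, 7.02 and 7.55 on deficient Lrat-/- arrays, 7.51, 7.19 and 7.42 on sufficient Lrat-/- arrays and 7.48, 7.25 and 7.82 on wild-type arrays. Ccr2 had 6.59, 6.52 and 6.45 on deficient Lrat-/- arrays, 7.06, 6.42 and 6.58 on sufficient Lrat-/- arrays and 6.38, 6.91 and 6.13 on wild-type arrays. Their groups overlapped in every comparison, with Cx3cr1 at -0.14 ± 0.18 and -0.01 ± 0.18 and Ccr2 at 0.21 ± 0.21 and -0.17 ± 0.21 for genotype and diet. Ccr2 was dim.

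The Ms4a genes encode membrane proteins that span the membrane several times and are found on macrophages and other blood cells, and all 3 members were on average higher on the deficient arrays than in either other group. Ms4a7 had 8.59, 8.59 and 8.76 on deficient Lrat-/- arrays, 8.25, 7.72 and 7.34 on sufficient Lrat-/- arrays and 7.53, 7.71 and 8.36 on wild-type arrays. The deficient arrays lay above the other 6, by 0.88 ± 0.25 (1.84-fold, unadjusted p = 0.00592, adjusted p = 0.969) over sufficient Lrat-/- and by 0.78 ± 0.25 (1.71-fold, adjusted p = 0.420) over wild type. Leaving out 1 array at a time kept the diet difference between 0.66 and 1.12. Sufficient Lrat-/- and wild type differed by -0.10 ± 0.25, and that value turned to 0.12 without sufficient array 3 and to 0.15 without wild-type array 3. Ms4a6c was at 0.37 ± 0.18 over sufficient Lrat-/- and 0.39 ± 0.18 over wild type, without overlap in either. Ms4a6d was at 0.34 ± 0.16 and 0.28 ± 0.16, without overlap against wild type only. Ms4a6c and Ms4a6d are close paralogs, so their probes may share RNA.

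Of the last members, Cybb is the catalytic subunit of the NADPH oxidase that makes superoxide, Aif1 (Iba1) binds calcium and actin, and Plac8 is a small protein of monocytes. Cybb differed by -0.18 ± 0.13 for the genotype and 0.20 ± 0.13 for the diet, and Aif1 by -0.06 ± 0.18 and 0.33 ± 0.18. Plac8 had 5.41, 5.43 and 5.35 on deficient Lrat-/- arrays, 5.97, 4.81 and 5.16 on sufficient Lrat-/- arrays and 5.70, 5.29 and 5.18 on wild-type arrays. It was dim, and sufficient Lrat-/- arrays 1 and 2 held its highest and lowest signals of the 9.

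The authors' deposited table, whose ratios correlated with the log2 differences of the arrays at r = 0.918, 0.890 and 0.922 over 35556 probe sets, gave few members an unadjusted p under 0.05. For sufficient Lrat-/- over wild type in the authors' deposited table there were 2 members, Ly86 (ratio 0.695) and Itgam (ratio 0.712), against 6.45% of all genes. For the diet the authors' deposited table gave 3 members, Ms4a7 (ratio 1.77), Lgals3 (ratio 1.35) and Trem2 (ratio 1.10), against 4.63%. For deficient Lrat-/- over wild type the authors' deposited table gave 3 members, Clec7a (ratio 0.496), Itgam (ratio 0.718) and Trem2 (ratio 1.17), against 8.4%. Its test over the 3 groups gave a lowest false discovery rate of 0.671 among the members, for Trem2.

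Genes that work with the members were taken from 9 lists. Of their 90 genes 89 were measured, and 0 passed in any comparison (limma, lowest adjusted p = 0.507 for the genotype, 0.463 for the diet and 0.146 for both together). Between sufficient Lrat-/- and wild type 71 of the 89 were lower (median -0.12), between deficient and sufficient diet 69 were higher (median 0.13), and between deficient Lrat-/- and wild type 39 were higher and 50 lower (median -0.03). Of all genes 50.8% were lower in the first comparison, 48.4% higher in the second and 48.6% higher in the third. An unadjusted p under 0.05 was reached by 4, 4 and 7 of the 89, against 6.8%, 4.29% and 9.02% of all genes. Of 12 genes of the leukocyte cytoskeleton and other blood cell genes 11 were lower for the genotype and 12 higher for the diet, with the actin regulator Coro1a at -0.35 ± 0.10 and 0.18 ± 0.10. Of 12 genes that signal below ITAM receptors 11 were lower and 10 higher, with the phospholipase Plcg2 at -0.21 ± 0.08 and 0.14 ± 0.08. The 5 partners of Cybb in the NADPH oxidase were all lower for the genotype (median -0.21) and all higher for the diet (median 0.17).

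Of 8 colony stimulating factor genes and receptors 8 were lower for the genotype and 5 higher for the diet. Of 11 toll-like receptor genes and adaptors 8 were lower and 8 higher, and of 8 classical complement partners 6 were lower and 5 higher. Of 10 myeloid transcription factors 7 were lower and 8 higher, and Tfec had the lowest p among them for the diet (0.48 ± 0.09, adjusted p = 0.463). Of 13 genes of recruited and activated monocytes 11 were lower for the genotype (median -0.15) and 8 higher for the diet (median 0.00).

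Of 10 resident macrophage genes 4 were lower for the genotype and 8 higher for the diet (median 0.23). Lyve1, a hyaluronan receptor of resident macrophages and lymphatic vessels, was lower where most of its list was higher, at -0.66 ± 0.11 for the diet (adjusted p = 0.463) and -0.57 ± 0.11 between deficient Lrat-/- and wild type (adjusted p = 0.146, or 0.0419 with limma's array weights). The scavenger receptor Cd163 of the same list was at 0.40 ± 0.19 and 0.53 ± 0.19, and the coagulation factor subunit F13a1 at 0.35 ± 0.15 and 0.37 ± 0.15.

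Markers of 11 other cell types that ventricle RNA can hold were read beside the members. Of 90 genes 85 were measured and 0 passed in any comparison, and an unadjusted p under 0.05 was reached by 13 for the genotype, 3 for the diet and 24 for both together, against 6.8%, 4.29% and 9.02% of all genes. On sufficient Lrat-/- array 3, the lowest for the members, the mean deviation was -0.21 for neutrophil, -0.15 for B cell, -0.03 for T cell, -0.06 for natural killer cell, -0.10 for dendritic cell, -0.04 for mast cell, -0.07 for red blood cell, -0.03 for cardiomyocyte, 0.02 for fibroblast, 0.09 for endothelial and 0.25 for smooth muscle genes. On sufficient Lrat-/- array 1, the highest for the members, it was 0.29 for neutrophil and 0.29 for smooth muscle genes, 0.17 for red blood cell genes, and between -0.04 and 0.04 for the other 8 lists. Of the 11 lists, neutrophil genes alone had both their highest mean on array 1 and their lowest on array 3. Of the 7 red blood cell genes measured 7 were higher in each comparison, with medians of 0.51, 0.44 and 0.95, and mast cell genes had medians of 0.47, 0.28 and 0.78. Endothelial genes were lower in 8 of 8 cases for the genotype (median -0.19), 6 of 8 for the diet (-0.06) and 8 of 8 for both together (-0.32). The part of these cell types in the members' differences was not tested.

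**Figure D4:**
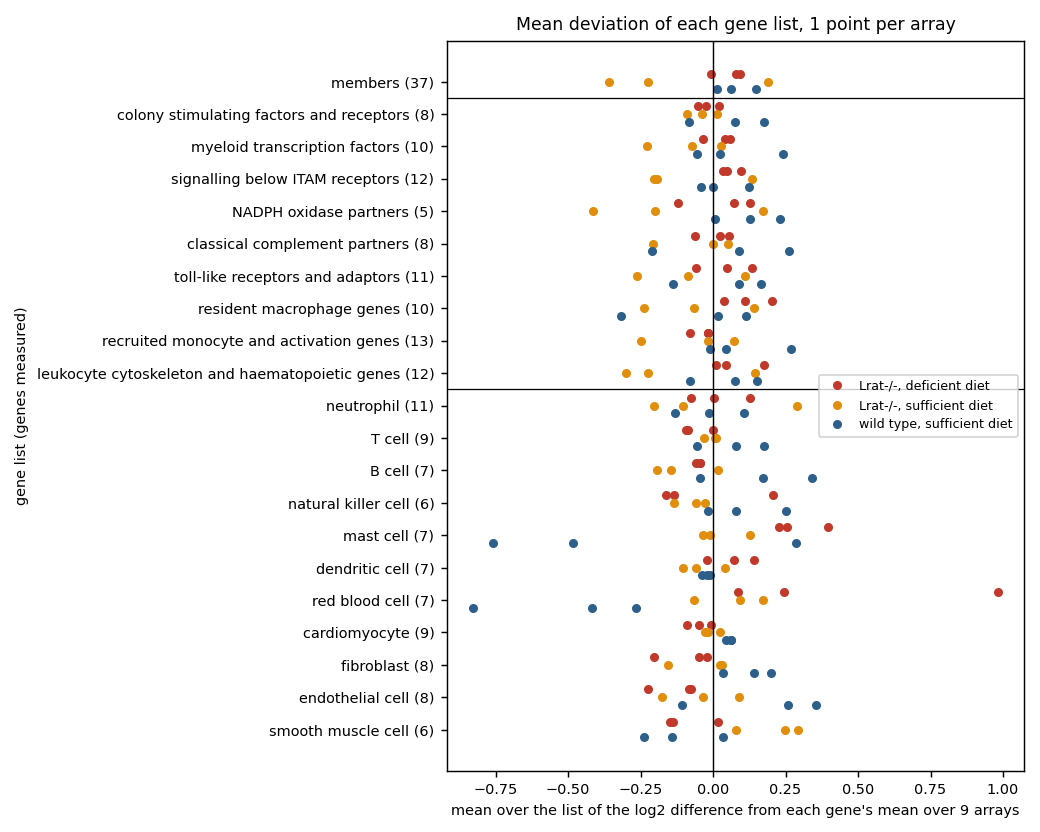
Mean over each gene list of the log2 signal minus the gene's mean over the 9 arrays, with 1 point per array in the colour of its labelled group and the number of genes measured in brackets. The members are at the top, 9 lists of related genes below them and 11 lists of other cell types at the bottom. For the members 2 of the 3 sufficient Lrat-/- arrays lie at -0.36 and -0.22, and the third, at 0.19, lies above all other arrays.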

How the data were processed

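RNA of 9 left ventricle samples was hybridised, each to 1 array. The deposited log2 signals were made by the authors with RMA, per the submitters' processing notes, which also name R 3.1.2 and the build mm8 without their roles. The authors' deposited table adds a linear ratio and a p-value per probe set for each pair of groups, and a false discovery rate over the 3 groups, with the test not given in the sources used here. The 9 value columns of a further deposited table carry headers that match no label and were not used, its gene symbols serving only as a check of names.

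Of 35556 probe sets 9449 had no symbol, 118 had several, and 2320 to which 2 deposited tables give different genes were left out. The 23669 remaining gave 21809 genes, each represented by its brightest probe set by mean over the 9 arrays. The exclusion of differently named probe sets was added after the data were seen. Groups come from the labels. Genes were compared with limma 3.58.1 (R 4.3.3, lmFit over all 9 arrays, eBayes, two-sided, Benjamini-Hochberg over all genes, threshold 0.05), with no filter on signal. Errors beside differences are SE from that model. On data simulated with the same spread in every group, the mean estimates were close to the changes put in. Most genes with the largest change were called. That does not show that changes as small as those of the members would be called. Same-numbered deficient and sufficient Lrat-/- arrays deviated together (r = 0.23, 0.26 and 0.21 over genes). The main fit treats all arrays as unpaired, and the replicate number entered only as a block in alternatives. The labels do not name the numbers as pairs. With wild type, r lay between -0.14 and 0.13. The 20 alternatives covered arrays left out, replicate blocks, array weights, filters, naming and the groups in the model. Members and lists were chosen with earlier results of these data known. Values on all 9 arrays are given for the 5 members with the lowest p in each comparison and for a set list of genes that define the roles. Genes of other lists are named where they have 1 of the 2 lowest p of their list in a comparison. The number of arrays limits the precision.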

Additional observations from a re-analysis of the deposited data

How the results depend on the processing

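Over all 37 members, 14 changed sign with at least 1 array left out between sufficient Lrat-/- and wild type, 16 for the diet and 14 between deficient Lrat-/- and wild type. For the 5 members with the lowest p in each comparison, which were chosen for that p, there were 298 results under 20 alternatives. Of these 294 kept their direction and call, 2 passed the threshold and 2 reversed. Itgam passed between sufficient Lrat-/- and wild type without sufficient Lrat-/- replicate 1 (-0.59), where 22 of 21809 genes passed. Members called in that comparison thus ranged over 0 to 1 with 1 array left out. Clec7a passed between deficient Lrat-/- and wild type with array weights (-1.01), making 1 member called where 69 of 21809 genes passed. Cd68 reversed when differently named probe sets were kept, to -0.15 for the diet and -0.12 between deficient Lrat-/- and wild type, since another probe set then stands for it. In that setting 31 members were higher for the diet, and 4 had an unadjusted p under 0.05, against 4.38% of 23069 genes. Between deficient Lrat-/- and wild type 18 were higher and 4 had such a p, against 9.04%. Between sufficient Lrat-/- and wild type 5 were higher and 4 had such a p, against 6.9%. The members' median diet difference lay between 0.028 and 0.37 with 1 array left out, and was 0.37 without sufficient Lrat-/- replicate 1. Members higher between sufficient Lrat-/- and wild type ranged over 2 to 11 with 1 array left out, against 4.

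Of all genes, 29 were called between sufficient Lrat-/- and wild type. With 1 array left out the count ranged over 11 to 96 (96 without wild-type replicate 3), and it was 7 with only the 2 groups in the model and 4 with the replicate block added to that. Between deficient Lrat-/- and wild type 29 were also called. With 1 array left out the count ranged over 11 to 265 (265 without wild-type replicate 3), and it was 7 with only the 2 groups, 2 with the replicate block added to that, 19 with a mean log2 of at least 7 and 69 with array weights. The cause was not tested. With the replicate block over all 9 arrays 21, 0 and 25 genes were called for genotype, diet and both together, and 0 members in each. The block changed no call of a member, over all 9 arrays or with only the 2 groups. With 3 arrays a group and a spread among the sufficient Lrat-/- arrays above that of all genes, differences of the size of the members' median could not be told from 0 for single genes.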

Other observations

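Of the genes of other cell types, the largest differences were in red blood cell and smooth muscle genes. Ahsp, which stabilises alpha globin, was at 1.33 ± 0.43 between sufficient Lrat-/- and wild type, 0.87 ± 0.43 between deficient and sufficient diet, and 2.20 ± 0.43 between deficient Lrat-/- and wild type (log2 difference ± SE, limma adjusted p = 0.572, 0.969 and 0.149). Deficient Lrat-/- array 2 had the highest mean over the 7 red blood cell genes, at 0.98 above the genes' means. Acta2, the actin of smooth muscle, was at 1.23 ± 0.35 between sufficient Lrat-/- and wild type and -1.27 ± 0.35 between deficient and sufficient diet (adjusted p = 0.481 and 0.969).

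The 7 mast cell genes had their lowest means on wild-type arrays 1 and 2 (-0.76 and -0.48) and 0.29 on wild-type array 3. Tpsb2, a mast cell tryptase, was at 0.79 ± 0.20 between deficient Lrat-/- and wild type (adjusted p = 0.276). Lum, which encodes the matrix protein lumican of fibroblasts, was at -0.37 between sufficient Lrat-/- and wild type and -0.45 between deficient Lrat-/- and wild type (adjusted p = 0.528 and 0.272). The part of these cell types in the values of the members was not tested.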
